A study of Homo sapiens with 6 samples.

Results

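The ubiquitin-specific proteases, whose genes carry the symbol USP and a number, were examined for R-loops in SH-SY5Y cells. The family was taken as every protein-coding gene of the RefSeq table (GRCh38.p14) on chromosomes 1 to 22 and X whose symbol is USP followed by digits and an optional X, which gave 50 of 19970 genes. Cells with the hairpin shT2 (3 samples) were compared with cells with the hairpin shNC3 (3 samples). Both hairpins were delivered by lentivirus under a U6 promoter to SH-SY5Y, a human neuroblastoma line, followed by puromycin at 2 µg/mL for 2 weeks and 1 µg/mL afterwards. The series is about knocking down TDP-43, a nuclear protein that binds RNA and aggregates in amyotrophic lateral sclerosis. The labels do not name the hairpin aimed at it, so shT2 was taken from its name to be the knockdown, with shNC3 as control. Nor do the labels say that the samples were infected separately. Each hairpin therefore stands for 1 selected population, and a p-value here reflects the scatter of its 3 samples, which can be purely technical.

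An R-loop is a stretch of DNA in which newly made RNA pairs with its template strand and leaves the other DNA strand single. DNA-RNA immunoprecipitation sequencing (DRIP-seq) pulls such hybrids down with the S9.6 antibody, here after the nucleic acids had been cut with 5 restriction enzymes, and enriched stretches are called as peaks. Ubiquitin-specific proteases are the largest family of human deubiquitinases: cysteine proteases that remove ubiquitin from proteins, which can spare the protein from the proteasome or end a ubiquitin signal on chromatin, at a receptor or at a DNA lesion. Some members have lost the catalytic residues and serve as scaffolds.

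The measure for a gene is its covered length, the number of base pairs (bp) under the merged peaks of a sample within the gene span plus 2 kb on either side. It measures the extent of called peaks over a gene and neither the strength of the pulldown nor the amount of RNA, and in these pooled cells a peak in fewer cells cannot be told apart from less hybrid per cell. For comparisons it was scaled to each sample's total covered length, and differences are of log2(scaled bp + 500), shT2 minus shNC3, tested with limma with Benjamini-Hochberg adjustment over all genes tested and a threshold of 0.05. Such a difference understates the change of a gene with little coverage, and for a gene with no peak in one hairpin it depends on the 500 bp added.

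The shT2 lists held 49068 to 50971 peaks and the shNC3 lists 42717 to 45390. The libraries also differed in depth, with 3.08 to 3.46 fragments per base recovered for shT2 and 1.65 to 1.79 for shNC3, and the main count of USP genes is given at equal depth too. TARDBP, the gene of TDP-43, was covered over 9702, 9573 and 7819 bp in shT2 and over 11725, 10554 and 10239 bp in shNC3 (log2 difference -0.40, limma adjusted p = 0.00683), which does not check the knockdown, since neither its RNA nor its protein was measured. Noradrenergic markers of the line had peaks in every sample for 8 of 10 genes, while TH, which makes the precursor of dopamine, had none and MYCN had a peak in 1 sample. Of 8 markers of mesenchymal neuroblastoma cells or fibroblasts, 5 of the 7 tested were lower in shT2, and PRRX1, CD44 and YAP1 had no peak in any shT2 sample. Summed over the 8 markers, shT2 samples held 11.5 to 13.3 kb and shNC3 samples 38.7 to 42.8 kb, and the part of this difference in the results below was not tested.

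The promoters of 6 genes are shown because their peaks bear on the comparison: peaks covered the USP49 window with one hairpin, the USP35 window with the other, those of USP34 and USP7 in fewer shT2 samples, and those of USP22 and USP12 in every sample. Each is 300 bases from 250 before to 50 after an annotated start, from the RefSeq promoter table (GRCh38.p14), on the gene's strand and from 5′ to 3′, with runs of at least 4 G (GGGG) in capitals. The windows lie at chr6:41895326-41895625 (minus strand) for USP49, chr11:78188669-78188968 (plus) for USP35, chr2:61471038-61471337 (minus) for USP34, chr16:8963857-8964156 (minus) for USP7, chr17:21042962-21043261 (minus) for USP22 and chr13:27171762-27172061 (minus) for USP12.
USP49: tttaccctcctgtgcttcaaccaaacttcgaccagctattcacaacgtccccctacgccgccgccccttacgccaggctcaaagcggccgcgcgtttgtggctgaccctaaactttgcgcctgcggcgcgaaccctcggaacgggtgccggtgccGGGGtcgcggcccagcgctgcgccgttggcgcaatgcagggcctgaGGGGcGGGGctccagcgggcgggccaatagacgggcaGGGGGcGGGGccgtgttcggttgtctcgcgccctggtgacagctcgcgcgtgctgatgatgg
USP35: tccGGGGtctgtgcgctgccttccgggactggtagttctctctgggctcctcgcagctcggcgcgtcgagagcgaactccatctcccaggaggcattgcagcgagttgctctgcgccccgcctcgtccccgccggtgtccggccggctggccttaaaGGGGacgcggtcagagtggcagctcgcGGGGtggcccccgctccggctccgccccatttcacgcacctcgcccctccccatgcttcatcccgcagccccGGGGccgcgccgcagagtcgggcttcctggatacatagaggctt
USP34: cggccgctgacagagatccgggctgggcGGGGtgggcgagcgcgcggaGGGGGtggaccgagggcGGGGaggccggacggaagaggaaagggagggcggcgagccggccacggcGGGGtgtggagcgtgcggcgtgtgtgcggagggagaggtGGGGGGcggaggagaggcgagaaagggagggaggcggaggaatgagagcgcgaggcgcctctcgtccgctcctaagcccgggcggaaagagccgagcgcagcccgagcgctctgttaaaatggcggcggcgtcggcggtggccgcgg
USP7: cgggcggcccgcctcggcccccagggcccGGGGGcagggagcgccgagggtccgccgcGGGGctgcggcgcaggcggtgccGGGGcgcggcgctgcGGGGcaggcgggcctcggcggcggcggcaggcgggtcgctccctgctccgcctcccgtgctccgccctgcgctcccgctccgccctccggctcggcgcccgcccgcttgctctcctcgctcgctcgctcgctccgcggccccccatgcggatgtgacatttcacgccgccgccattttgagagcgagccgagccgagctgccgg
USP22: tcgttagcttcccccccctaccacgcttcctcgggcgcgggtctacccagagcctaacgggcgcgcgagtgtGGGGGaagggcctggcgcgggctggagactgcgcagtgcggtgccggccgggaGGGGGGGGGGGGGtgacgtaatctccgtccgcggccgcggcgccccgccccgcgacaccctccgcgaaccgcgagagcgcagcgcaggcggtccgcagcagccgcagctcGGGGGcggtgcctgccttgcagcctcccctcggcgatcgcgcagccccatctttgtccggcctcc
USP12: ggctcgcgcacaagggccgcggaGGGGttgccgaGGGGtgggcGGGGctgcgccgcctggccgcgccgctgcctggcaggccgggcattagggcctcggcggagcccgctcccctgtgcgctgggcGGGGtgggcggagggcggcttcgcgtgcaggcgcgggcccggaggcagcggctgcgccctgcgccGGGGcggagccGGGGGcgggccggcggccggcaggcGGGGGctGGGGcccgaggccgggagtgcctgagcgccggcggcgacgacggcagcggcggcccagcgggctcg

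All of the USP49 window lay under a peak in 3 of 3 shT2 samples (300 bp each) and none of it in any shNC3 sample. In the USP35 window the picture was the opposite, with 0 bp in all shT2 samples and 207, 254 and 16 bp in shNC3. The USP34 window had 0 bp in all shT2 samples, against 100, 0 and 220 bp in shNC3. For USP7 the covered lengths were 0, 0 and 167 bp in shT2, against 300, 252 and 277 bp in shNC3. The USP12 window was covered over 91, 161 and 120 bp in shT2, against 300 bp in every shNC3 sample, and the USP22 window over 300 bp in all 6. The printed strand holds 5 runs of at least 4 G in USP49, 4 in USP35, 5 in USP34, 4 in USP7, 3 in USP22 and 8 in USP12, and G and C make up 68.7%, 70.0%, 74.7%, 81.3%, 75.7% and 84.3% of these windows in the same order. Such a run occurs on the printed strand of 37 of the 39 USP promoters in the table and of 80.6% of all 15811 promoters. The promoter table holds 39 of the 50 USP genes, under 80%, so a comparison of base composition between the family and other genes is void.

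As a family, the USP genes carried more peak coverage in shT2. Summed over the 50 genes, covered length was 298, 329 and 313 kb in shT2, against 249, 223 and 234 kb in shNC3, which was 0.405%, 0.420% and 0.431% of each sample's covered length in shT2, against 0.353%, 0.355% and 0.344% in shNC3. The 3 shT2 samples lay above the 3 shNC3 samples on both scales. At least 1 peak was found at 41, 41 and 41 USP genes in shT2 and at 38, 35 and 37 in shNC3. Peaks occurred in all 6 samples at 30 of the 50 USP genes (background 47% of all 19970 genes) and in no sample at 5 (background 34.7%): USP14, a proteasome-bound enzyme, USP26, USP29, USP43 and USP53. Peaks in 3 of 3 shT2 samples and no shNC3 sample were found at 3 USP genes, USP44, USP45 and USP48 (background 1.66%), and the converse at 1, USP38 (background 1.9%). A further 4 genes had peaks in fewer than 3 of 6 samples and were not tested: USP15, USP18, USP27X and USP28.

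Of the 41 USP genes tested, 16 were higher in shT2 (39.0%), against a background of 24.1% of all 11769 genes tested, and 4 were lower (9.76%), against a background of 27.2%. The remaining 21 did not pass. The median log2 difference was 0.33 over the USP genes and -0.08 over all genes tested. Samples of the hairpins did not overlap at 28 USP genes: shT2 lay above shNC3 at 20 (background 27.6%) and below it at 8 (background 37.4%). At equal depth, 14 of 41 USP genes were higher (background 22.4%) and 5 lower (background 25.15%), with 11549 genes tested in all. Of the 20 calls, 18 were kept there. The calls of USP33 and USP39 were lost.

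**Figure D1:**
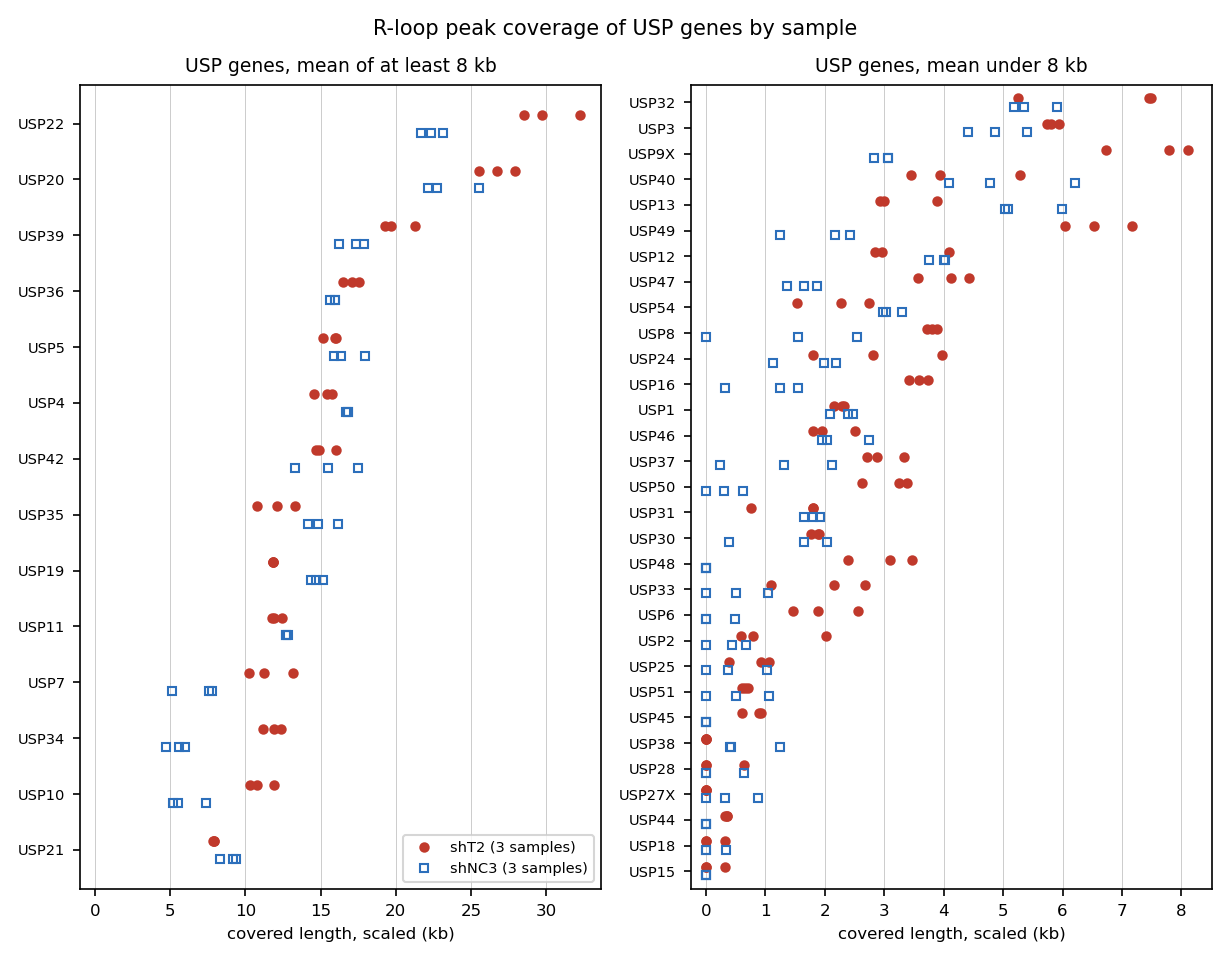
Covered length scaled to total covered length (x axis, kb; left panel, genes with a mean of at least 8 kb; right panel, the others with a peak in any sample) for each USP gene, with 1 point per sample, shT2 filled circles and shNC3 open squares. USP22 averages 30.2 kb with shT2, against 22.4 kb with shNC3, while USP48 has points above 0 in shT2 only.

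Of the members that act on histones and chromatin, 4 of 7 tested were higher in shT2 (57.1%, background 24.1%) and none lower (background 27.2%). USP22 (chromosome 17, 20999596 to 21043419), the ubiquitin protease of the SAGA coactivator complex, had the longest mean coverage of the family. Its covered length was 29550, 32755 and 33046 bp in shT2, against 21523, 19817 and 22175 bp in shNC3. The scaled means were 30.2 ± 1.91 kb for shT2 and 22.4 ± 0.73 kb for shNC3 (± SD of 3 samples). The log2 difference was 0.42 with a standard error (SE) of 0.06 (limma adjusted p = 0.000775). The window of 2 kb on either side of the start held 2896 bp in all 6 samples. The body held 22654, 25859 and 26150 bp in shT2, against 15017, 12921 and 15710 bp in shNC3. Within it, a region of 3875 bp (chr17:21031795-21035669), centred 9.69 kb from the start, had peaks in 3 of 3 shT2 samples and in no shNC3 sample.

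USP49 (chromosome 6, 41789896 to 41895375), which removes ubiquitin from histone H2B, was covered over 7424, 7189 and 6188 bp in shT2, against 2409, 1100 and 2083 bp in shNC3. The lowest shT2 sample had more than any shNC3 sample, and the log2 difference was 1.56 (SE 0.20, limma adjusted p = 0.000713). Around its start the covered length was 2773 bp in every shT2 sample, against 952, 626 and 692 bp in shNC3 (log2 difference 1.28, SE 0.13, limma adjusted p = 0.000767), and its promoter, printed above, lay under peaks in shT2 alone. USP44 (chromosome 12, 95516560 to 95551681), another H2B protease with a role at the mitotic checkpoint, had 340, 393 and 369 bp in shT2 and no peak in shNC3 (0.76, limma adjusted p = 0.0243). Each shT2 sample has 1 short peak there, and the call was lost when any 1 of 5 libraries was left out (adjusted p of 0.0514 to 0.0729), all but shNC3 replicate 2.

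USP16 (chromosome 21, 29024668 to 29054488), a histone H2A protease, was covered over 3864, 3948 and 3502 bp in shT2, against 1233, 1374 and 313 bp in shNC3 (log2 difference 1.51, SE 0.33, limma adjusted p = 0.00799). USP21 (chromosome 1, 161159500 to 161165723), which also acts on H2A, was among the most fully covered genes of the family, at 81.9% of its window. It held 8156, 8694 and 8094 bp in shT2 and 8229, 8283 and 8794 bp in shNC3, and the log2 difference of -0.17 did not pass (limma adjusted p = 0.0677). USP3 (0.23, limma adjusted p = 0.0659) and USP51 (0.33, limma adjusted p = 0.517) did not pass either.

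Among members linked to DNA repair, p53 and the cell cycle, 5 of 13 tested were higher in shT2 (38.5%, background 24.1%) and none lower (background 27.2%). USP48 (chromosome 1, 21678298 to 21783149), which removes the ubiquitin that BRCA1 places on histone H2A, had the largest log2 difference of the family. It held 2478, 3417 and 3554 bp in shT2 and no peak in any shNC3 sample (2.79, SE 0.22, limma adjusted p = 9.59e-05). Its strongest peak per shT2 sample had a fold of 4.26 to 5.79 and a median percentile of 36.3 by −log10 p within the lists. USP48 kept its call under 17 other settings of the analysis and was not tested with peaks of at least 5-fold enrichment. The coverage included regions of 2287 bp (chr1:21677994-21680280) and 857 bp (chr1:21680857-21681713) at the low-coordinate end of the gene, each present in 3 of 3 shT2 samples and in no shNC3 sample. USP45 (chromosome 6, 99432325 to 99517846), which acts on the excision repair nuclease ERCC1, held 622, 1011 and 906 bp in shT2 and none in shNC3 (1.37, SE 0.23, limma adjusted p = 0.00253). All of it in shT2 replicates 1 and 3, and 632 bp in replicate 2, lay within 2 kb of the gene's stop, and without the 2 kb flanks the difference was 0.48 and no longer passed (adjusted p = 0.104).

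USP7 and USP10, both proteases of the p53 pathway, had coverage in all samples. USP7 (chromosome 16, 8892097 to 8963906), which stabilises MDM2 and p53, held 10580, 14512 and 11512 bp in shT2, against 7702, 4536 and 7260 bp in shNC3 (log2 difference 0.73, SE 0.16, limma adjusted p = 0.00805). USP10 (chromosome 16, 84700000 to 84779922), which binds the stress granule protein G3BP1, held 10679, 13120 and 10995 bp in shT2, against 7303, 4619 and 5268 bp in shNC3 (0.83, SE 0.13, limma adjusted p = 0.00160). In both genes the lowest shT2 sample was above the highest shNC3 sample. USP47 (chromosome 11, 11841972 to 11961887), which acts on DNA polymerase beta in base excision repair, held 3689, 4547 and 4535 bp in shT2, against 1634, 1652 and 1311 bp in shNC3 (1.10, SE 0.15, limma adjusted p = 0.000987).

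USP37, a protease of cyclin A, held 3445, 2978 and 2955 bp in shT2, against 1298, 1880 and 223 bp in shNC3, and although the samples did not overlap, the log2 difference of 1.19 just missed the threshold (limma adjusted p = 0.0537). USP11 (chromosome X, 47233009 to 47248328), a partner of BRCA2, was covered over 64.0% of its window, with 12328, 12992 and 12722 bp in shT2 and 12615, 11381 and 12193 bp in shNC3 (-0.08, limma adjusted p = 0.198). USP1, USP12 and USP46, which share the activator WDR48, had log2 differences of -0.03, -0.23 and -0.08, and none passed. USP2, USP24 and USP42 did not pass.

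In the signalling group, 3 of 6 tested were higher (background 24.1%) and 1 was lower (background 27.2%). USP34 (chromosome 2, 61187463 to 61471087), which stabilises AXIN in Wnt signalling, held 12329, 13633 and 11464 bp in shT2, against 5937, 4155 and 5370 bp in shNC3 (log2 difference 1.06, SE 0.09, limma adjusted p = 0.000153). USP9X (chromosome X, 41085445 to 41236579), a protease of SMAD4 and MCL1 that is mutated in X-linked intellectual disability, held 8072, 7416 and 8304 bp in shT2, against 3043, 2715 and 2715 bp in shNC3 (1.20, SE 0.10, limma adjusted p = 0.000104). Every shT2 sample of both genes held more than any shNC3 sample. The USP9X gain included regions of 1311 bp (chrX:41210599-41211909) and 3584 bp (chrX:41212241-41215824), present in 3 of 3 shT2 samples and in no shNC3 sample.

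USP6 (chromosome 17, 5116032 to 5174991), an oncogene of bone and soft-tissue tumours, held 1947, 2827 and 1492 bp in shT2, against 481, 0 and 0 bp in shNC3 (log2 difference 1.95, SE 0.34, limma adjusted p = 0.00300). Of its covered length, 95.6% also lay in the spans of the neighbours ZNF232 and ZNF594, which overlap its own. ZNF232 was itself higher in shT2, with 8644, 10092 and 8460 bp, against 3637, 3616 and 3643 bp in shNC3 (1.06, limma adjusted p = 7.59e-05), and the peaks cannot be told apart by gene. Without the flanks USP6 did not pass (1.20, adjusted p = 0.0691). USP38 (chromosome 4, 143184917 to 143223874), linked to innate immune signalling, ran the other way, with no peak in shT2 and 1239, 368 and 390 bp in shNC3 (-1.18, SE 0.32, limma adjusted p = 0.0179). Its call was lost when any single shT2 library was left out (adjusted p of 0.0509 to 0.0530). USP4 and USP25 did not pass.

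Members of the endosome, endoplasmic reticulum, mitochondrion and free ubiquitin chains held 3 of the 4 lower calls. Of 9 tested, 2 were higher (22.2%) and 3 lower (33.3%), shares near the background of 24.1% and 27.2%. USP19 (chromosome 3, 49108050 to 49120823), anchored in the endoplasmic reticulum membrane, was covered over 78.7% of its window. It held 12239, 13040 and 12123 bp in shT2, against 14258, 13452 and 14069 bp in shNC3 (log2 difference -0.31, SE 0.05, limma adjusted p = 0.00166). USP13 (chromosome 3, 179653040 to 179789401), which acts in degradation at the endoplasmic reticulum, held 3112, 3219 and 3989 bp in shT2, against 4999, 5312 and 4864 bp in shNC3 (-0.64, SE 0.13, limma adjusted p = 0.00584). In USP13 the groups did not overlap before or after scaling. LAMB2, whose span holds 10.6% of the USP19 coverage, had a log2 difference of -0.98 (limma adjusted p = 0.000195). With its 2 kb flanks, the LAMB2 window reaches further into USP19 than that share shows.

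USP35 (chromosome 11, 78188919 to 78237219), a protease reported at mitochondria, held 11166, 13354 and 13592 bp in shT2, against 16078, 13135 and 13550 bp in shNC3 (log2 difference -0.31, SE 0.09, limma adjusted p = 0.0198). Before scaling the groups overlapped, and without scaling the difference was -0.16 (adjusted p = 0.289). The call was also lost without shT2 replicate 1 or 2 or shNC3 replicate 1 or 2 (adjusted p of 0.0514 to 0.0618), without the 2 kb flanks (-0.23, adjusted p = 0.0577) and when peaks under 5-fold were dropped (-0.15, adjusted p = 0.337). A region of 4347 bp over its start (chr11:78185313-78189659) had peaks in 3 of 3 shNC3 samples and in no shT2 sample, where 3980, 1621 and 2294 bp were covered in shNC3. KCTD21, the neighbour on the other side of that start, held 434, 653 and 351 bp in shT2, against 9307, 7354 and 6328 bp in shNC3 (-3.17, limma adjusted p = 2.87e-05). At the other end USP35 overlaps GAB2 (-0.06, limma adjusted p = 0.544). Of the USP35 covered length, 49.4% lay in the spans of GAB2 and KCTD21.

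USP33 (chromosome 1, 77695987 to 77759852), which binds the von Hippel-Lindau protein, held 1137, 2370 and 2748 bp in shT2, against 495, 0 and 1007 bp in shNC3 (log2 difference 1.37, limma adjusted p = 0.0392). Its call was lost without shT2 replicate 2 or 3 or shNC3 replicate 1 or 2 (adjusted p of 0.0759 to 0.120) and at equal depth (1.19, adjusted p = 0.0679). Its close relative USP20 (chromosome 9, 129835458 to 129881828) held 27707, 28136 and 28621 bp in shT2, against 22587, 22617 and 21226 bp in shNC3 (0.19, SE 0.06, limma adjusted p = 0.0428). That call was lost without any 1 library other than shNC3 replicate 2 (adjusted p of 0.0539 to 0.130).

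USP5 (chromosome 12, 6852150 to 6866632), which takes apart free ubiquitin chains, was the most fully covered of the family, at 87.5% of its window. It held 16580, 16687 and 16328 bp in shT2 and 16240, 15909 and 15260 bp in shNC3, which after scaling gave a log2 difference of -0.09 (limma adjusted p = 0.236). Its strongest peak ranked at percentile 99.8 of −log10 p within the shT2 lists and at percentile 99.9 within the shNC3 lists (medians of 3, the p being the peak caller's own value). The highest fold, 55.2 in shT2 and 75.4 in shNC3, belonged to a merged region of 20131 bp (chr12:6857962-6878092). That region runs past the USP5 stop and across the neighbour TPI1, so its peak cannot be assigned to USP5 alone. The region over the USP5 start reached a fold of 13.3 in shT2 and 9.69 in shNC3. USP8 (chromosome 15, 50424405 to 50514421), which sorts receptors such as EGFR at endosomes, held 3859, 4281 and 3890 bp in shT2, against 1535, 2250 and 0 bp in shNC3, a log2 difference of 1.56 that did not pass (limma adjusted p = 0.0646). USP30, the protease of the outer mitochondrial membrane, and USP32 did not pass.

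In the group of RNA processing, the nucleolus and members without catalytic activity, 2 of 4 tested were higher (background 24.1%) and none lower (background 27.2%). USP50 (chromosome 15, 50493025 to 50546666), which lacks protease activity, held 3497, 2893 and 3318 bp in shT2, against 307, 549 and 0 bp in shNC3 (log2 difference 2.21, SE 0.32, limma adjusted p = 0.00118). Its span overlaps that of USP8, and all of its covered length (100%) also counts for USP8, so the coverage of both genes is in large part the same peaks. USP39 (chromosome 2, 85602861 to 85649283), an inactive member that helps assemble the spliceosome, held 20429, 23429 and 19774 bp in shT2, against 17266, 14391 and 17143 bp in shNC3 (0.22, SE 0.06, limma adjusted p = 0.0156). The USP39 call was lost without shT2 replicate 2 (0.18, adjusted p = 0.0519) and at equal depth (0.17, adjusted p = 0.0603). Of the USP39 covered length, 32.7% lay in the spans of C2orf68 and TMEM150A. USP36 (chromosome 17, 78787381 to 78841439), a nucleolar protease, held 17112, 18796 and 17955 bp in shT2 and 15856, 13868 and 15266 bp in shNC3 (0.10, limma adjusted p = 0.0983). USP54 did not pass, nor did the little-studied USP31 and USP40.

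**Figure D2:**
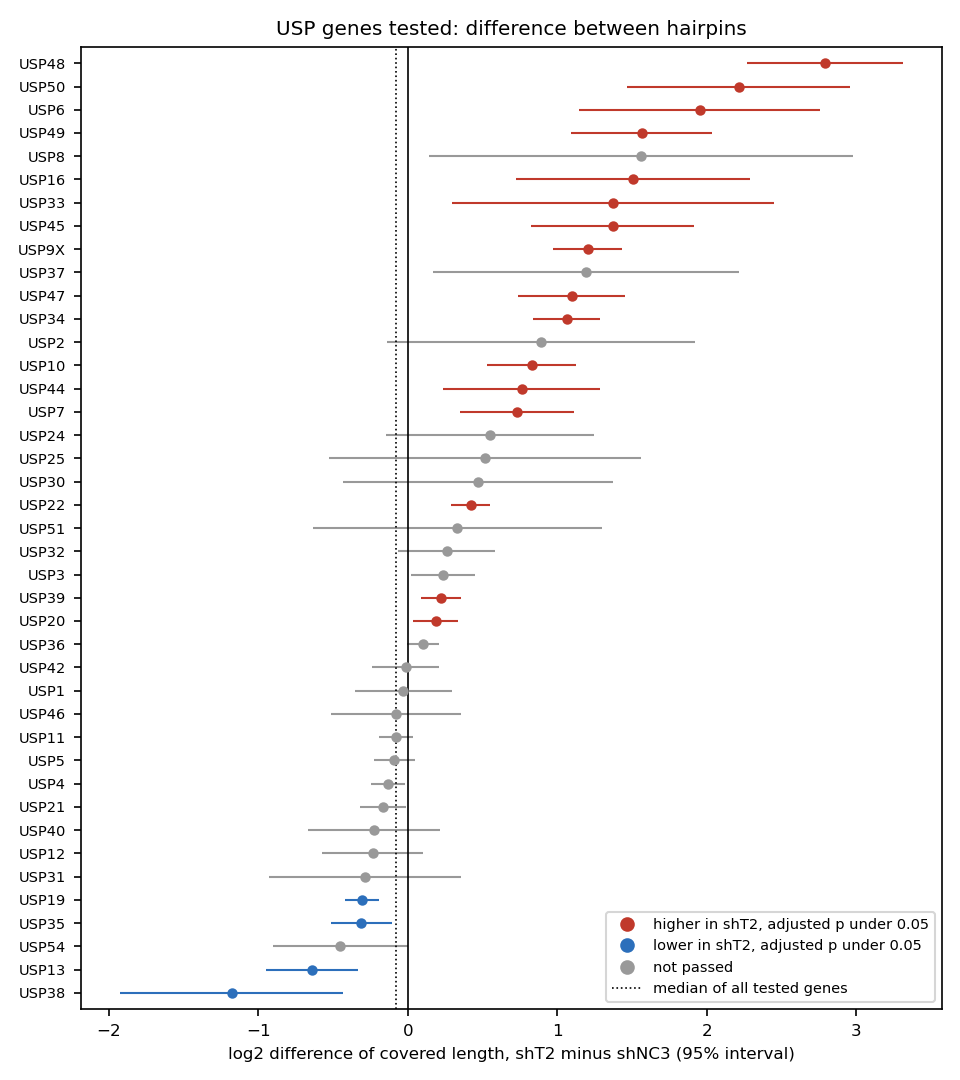
Log2 difference of covered length, shT2 minus shNC3 (x axis), with its 95% interval, for the 41 USP genes tested, coloured by the test result. Of these genes 16 are higher and 4 lower, and the dotted line marks the median of all genes tested, -0.08.

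The position of the difference along the gene was then compared. The strand, and with it the start, was known for 39 of the 50 USP genes, and 11 are missing from the counts for starts and stops. The gene body (the span without 2 kb at each end) needs no strand. That window was added after the data had been seen.

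In gene bodies, of 34 USP genes tested, 14 were higher in shT2 (background 25.2%) and 1 was lower (background 21.6%), with a median log2 difference of 0.56, beside -0.03 over all gene bodies tested. Of the 16 genes higher over the whole window, 12 were higher in the body, 3 did not pass there and 1 was not tested. The body is part of the whole window, so this overlap is no independent support. USP9X had 5357, 4398 and 5114 bp in the body in shT2, against 328, 0 and 0 bp in shNC3 (3.13, SE 0.25, limma adjusted p = 0.000507). USP24, which did not pass over the whole window, had 1874, 2477 and 2477 bp in the body in shT2 and none in shNC3 (2.4, SE 0.15, limma adjusted p = 0.000232). In USP34 the body held 8782, 10611 and 8574 bp in shT2, against 3771, 1342 and 3179 bp in shNC3 (1.54, SE 0.30, limma adjusted p = 0.00915). In USP7 it held 6547, 10221 and 7487 bp in shT2, against 3386, 1289 and 3443 bp in shNC3 (1.35, SE 0.32, limma adjusted p = 0.0189). The single lower body, that of USP4, differed by -0.14, the size that scaling alone gives, and no USP body was lower without scaling.

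Of 22 USP starts tested, 2 were higher in shT2 (background 8.83%), those of USP6 and USP49, and 7 were lower (background 23.6%), those of USP7, USP11, USP12, USP19, USP34, USP35 and USP38. The median was -0.14, the same as over all starts tested, -0.14. This shift is the size that scaling alone gives: USP21 had 4000 bp around its start in all 6 samples and a log2 difference of -0.14 after scaling. Without scaling, the lower calls of USP12 and USP35 were kept and those of USP7, USP11, USP19, USP34 and USP38 were lost.

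In USP19 the start held 1668, 2709 and 1449 bp in shT2, against 3680, 3235 and 3586 bp in shNC3 (log2 difference -0.88, SE 0.15, limma adjusted p = 0.00650). In USP12 it held 2131, 2202 and 2140 bp in shT2, against 3060, 2617 and 2660 bp in shNC3 (-0.43, SE 0.07, limma adjusted p = 0.00350). The USP35 start had 0 bp in shT2, against 2374, 1496 and 1588 bp in shNC3 (-2.26, SE 0.22, limma adjusted p = 0.000628). USP7 and USP34 combined a lower start with a higher body, although neither start passed without scaling (-0.28, limma adjusted p = 0.0771 for USP7, and -0.17, limma adjusted p = 0.129 for USP34). Around the USP7 start there were 1899, 1479 and 1661 bp in shT2, against 2190, 2100 and 2144 bp in shNC3 (-0.41, limma adjusted p = 0.0309), and around that of USP34 2011, 1832 and 1687 bp in shT2, against 2166, 2054 and 2191 bp in shNC3 (-0.30, limma adjusted p = 0.0426). The promoter windows of both genes, printed above, also had peaks in fewer shT2 than shNC3 samples.

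Stops gave 5 higher of 21 tested (background 18.4%), those of USP10, USP34, USP35, USP45 and USP47, and 1 lower (background 15.1%), that of USP11. In USP47 the stop held 2882, 3184 and 3184 bp in shT2, against 1634, 470 and 938 bp in shNC3 (log2 difference 1.21, SE 0.26, limma adjusted p = 0.0128). Of all USP47 covered length, 23.6% lay in the span of DKK3, the neighbour past that stop, which did not pass (-0.47, limma adjusted p = 0.0765). In USP10 the stop held 638, 830 and 323 bp in shT2 and none in shNC3 (1.06, SE 0.21, limma adjusted p = 0.0102). The USP35 stop gained a peak of 324, 370 and 411 bp in shT2 that no shNC3 sample had (0.76, limma adjusted p = 0.0120), at the end opposite to the lost start. That peak also lies within the span of GAB2, so it cannot be assigned to USP35 alone. The difference of -0.14 at the USP11 stop is no larger than the shift from scaling.

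**Figure D3:**
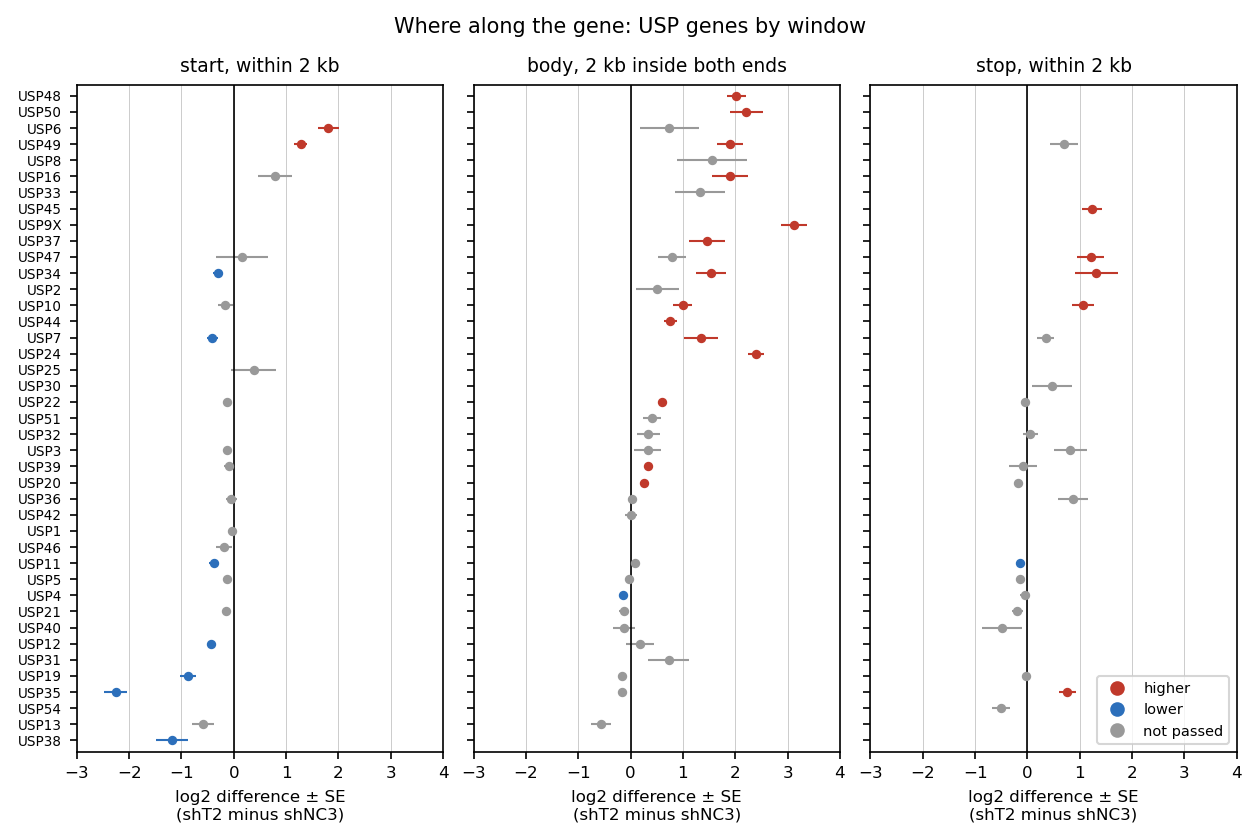
Log2 difference of covered length, shT2 minus shNC3 (x axes), with its standard error, around the start, in the body and around the stop of each USP gene tested in that window. Of the bodies 14 are higher and 1 lower, and of the starts 2 are higher and 7 lower.

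Single regions were followed next. Merged over the 6 samples, peaks formed 331 regions in the windows of USP genes, of which 80 (24.2%) had peaks in every sample, beside 20.6% of all 75622 regions. Regions with peaks in 3 of 3 shT2 samples and no shNC3 sample numbered 25 (7.55%, beside 5.87% of all regions), and the converse numbered 3 (0.906%, beside 2.86%). Of the 25, 18 lay in gene bodies, a share like that of all 331 regions, of which 237 lay in bodies. USP10 held 4 of them, of 1149 to 1763 bp, centred 24.9, 27.0, 51.3 and 62.5 kb from its start. The 3 regions found with shNC3 alone were those over the starts of USP35 and USP38 (chr4:143185372-143186453) and 1 in the body of USP35 (chr11:78220445-78221433), where it overlaps GAB2.

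**Figure D4:**
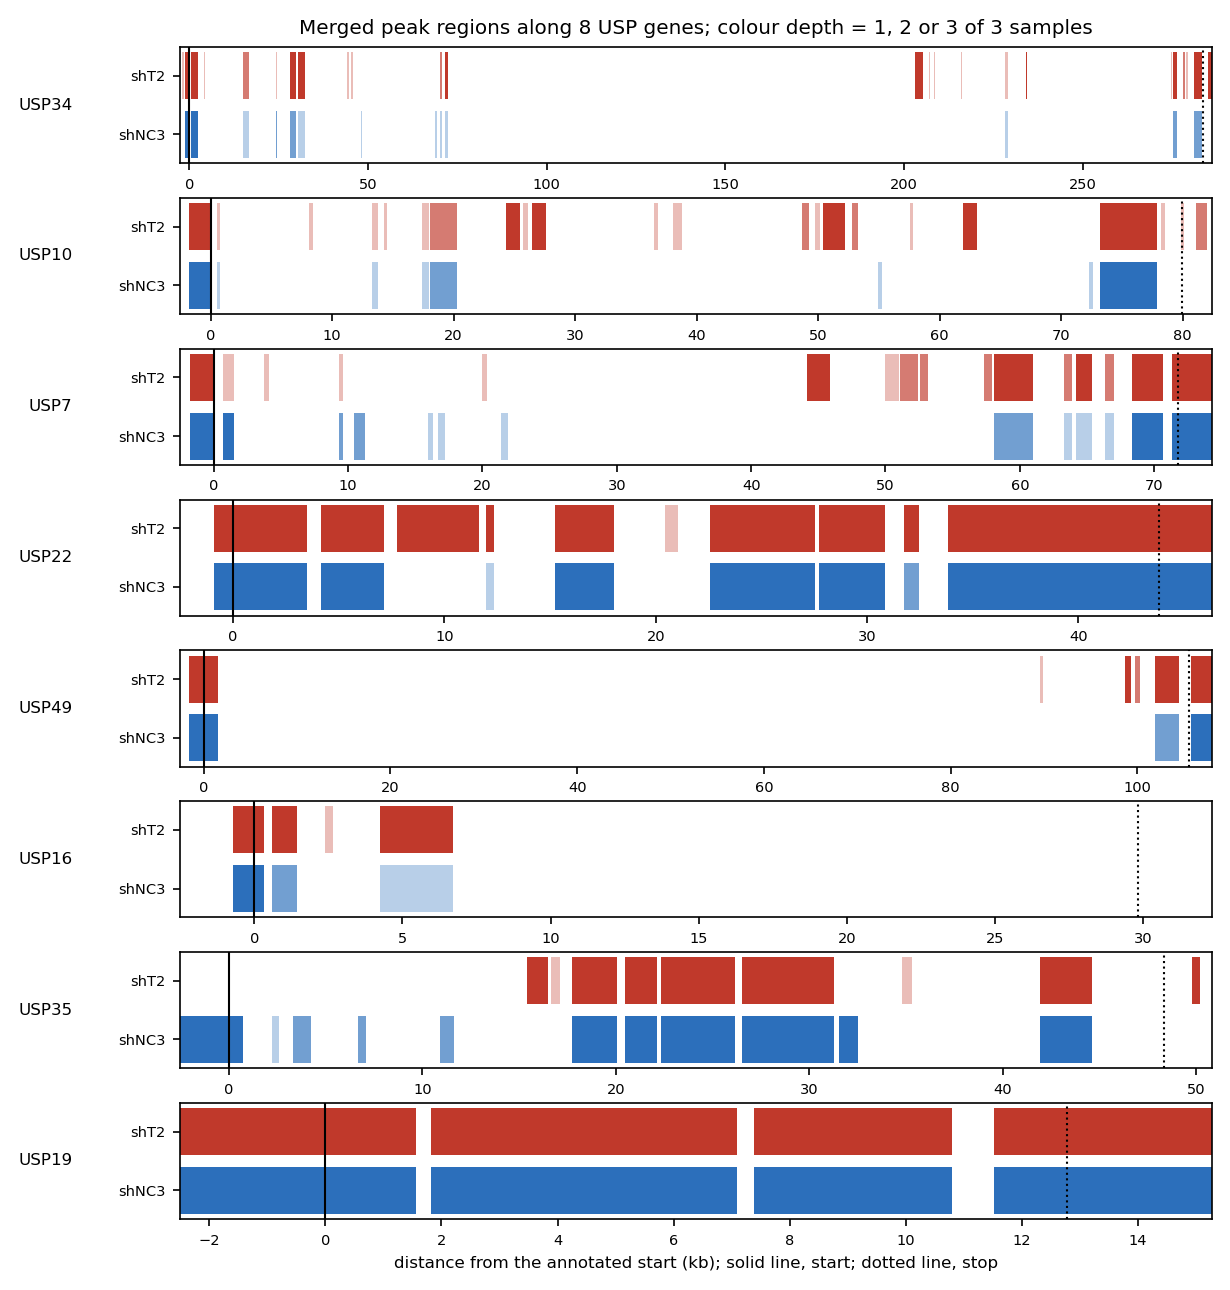
Merged peak regions along 8 USP genes by distance from the annotated start (x axis, kb), with shT2 above shNC3 and colour depth for the number of the 3 samples with a peak. Regions are drawn at their merged width, so a region that is narrower in 1 hairpin looks alike in both. USP10 has 4 body regions in 3 of 3 shT2 samples and no shNC3 sample, and the region over the USP35 start is in shNC3 alone.

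Genes that work with the USP enzymes were set beside them, from 4 lists. Of 28 other deubiquitinases tested, 10 were higher (35.7%, background 24.1%) and 5 lower (17.9%, background 27.2%), with a median log2 difference of 0.23, beside -0.08 over all genes tested. VCPIP1, a protease of the Golgi, had 1113, 1308 and 784 bp in shT2 and none in shNC3 (1.58, limma adjusted p = 0.00128). BAP1, the nuclear tumour suppressor that acts on H2A, had 7069, 8207 and 7234 bp in shT2, against 8914, 8201 and 8941 bp in shNC3 (-0.35, limma adjusted p = 0.00303). ZRANB1 had 5373, 5678 and 6896 bp in shT2, against 1281, 2253 and 2413 bp in shNC3 (1.27, limma adjusted p = 0.00324).

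Partners and regulators of USP enzymes gave 4 higher (30.8%, background 24.1%) and 2 lower (15.4%, background 27.2%) of 13 tested, with a median log2 difference of -0.0048. WDR20 and WDR48, activators of USP12 and USP46, were both higher, WDR20 with 12282, 11387 and 11023 bp in shT2, against 2875, 1535 and 3641 bp in shNC3 (log2 difference 1.84, limma adjusted p = 0.000514), and WDR48 with 2807, 2736 and 2795 bp in shT2, against 1324, 1002 and 1372 bp in shNC3 (0.81, limma adjusted p = 0.00477). The lower genes were HGS, the endosomal partner of USP8 (-0.28, limma adjusted p = 0.00244), and DMWD, a relative of WDR20 (-0.21, limma adjusted p = 0.0383). Of the 6 ubiquitin genes and E1 activating enzymes, RPS27A was higher (0.77, limma adjusted p = 0.0144), UBA1 was lower (-0.29, limma adjusted p = 0.00612) and 4 did not pass, against the same background.

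Among 20 proteins known as substrates of USP enzymes, 8 genes were higher (background 24.1%) and 1 lower (background 27.2%), with a median log2 difference of 0.11. MYC, a transcription factor, had 8705, 9919 and 8937 bp in shT2, against 5411, 4460 and 5029 bp in shNC3 (0.68, limma adjusted p = 0.000221), and HIF1A 5979, 7092 and 7300 bp in shT2, against 3272, 2884 and 3272 bp in shNC3 (0.86, limma adjusted p = 0.000432). The 1 lower gene was EGFR, with no peak in shT2 and 1525, 1147 and 743 bp in shNC3 (-1.74, limma adjusted p = 0.00135).

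The 20 called USP genes were also followed through 18 other settings of the analysis. Of 350 values, 298 kept direction and call, 47 kept direction but lost the call and 5 turned direction, all 5 when only windows around gene ends were counted. USP49, USP47 and USP19 kept their calls under all 18. USP20 kept its call under 9, USP33 under 8 and USP44 under 7, with USP33 not tested under 2 and USP44 under 3.

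**Figure D5:**
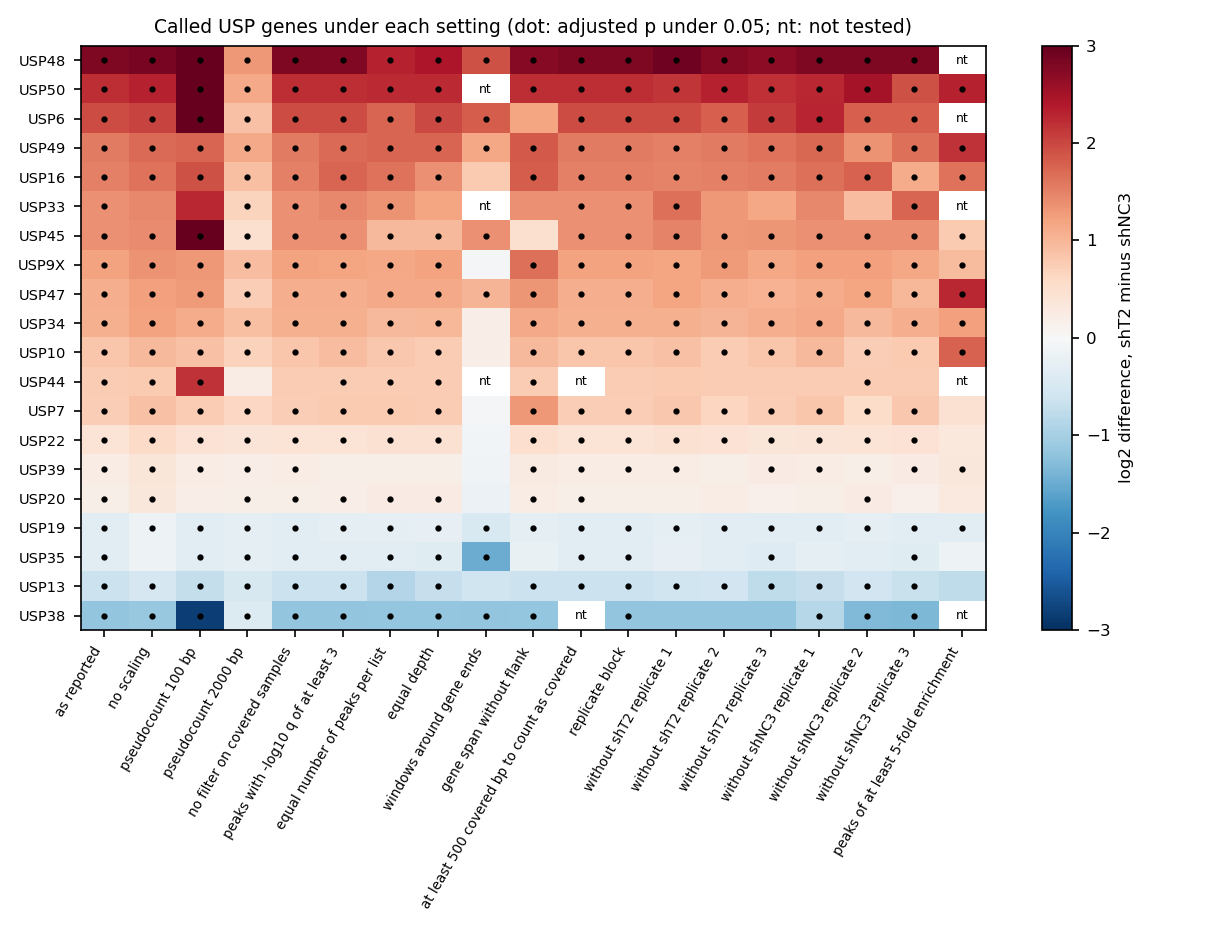
Log2 difference of covered length, shT2 minus shNC3 (colour), for the 20 called USP genes (rows) under each setting of the analysis (columns). A dot marks an adjusted p under 0.05 and nt a gene not tested there. The column for windows around gene ends has 5 genes below 0 that are above it as reported.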

How the data were processed

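A peak list per sample was deposited for the 6 DRIP-seq samples. Per the submitters' processing notes, the tools were MACS2 2.2.6, SAMtools and Bowtie2 2.4.4 and the genome build was hg38. The control used for calling is not stated in those sources. The deposited lists give, per the authors' peak caller, an integer score, the fold enrichment at the summit (a linear ratio), a −log10 p-value and a −log10 q-value per peak. The score was not used, and the others served only to rank or filter peaks within a list and to recover depth, in fragments per base, from fold and p-value pairs. Because the nucleic acids were cut before the pulldown, the width of a peak can reflect where the fragment was cut.

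Genes came from the RefSeq table of GRCh38.p14, the same build. Positions are 1-based. Peaks were merged per sample, and log2 of scaled covered bp plus 500 went into limma 3.58.1 (R 4.3.3; trend and robust, no covariates) over the 11769 genes covered in at least 3 of 6 samples. Regions merge the peaks of all samples, with an overlap of 1 bp counted as present. The scripts were tested on simulated data. Depth limits short peaks most, and read counts per gene were not used here.

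All 50 family members are accounted for. Values per sample are given for members past the threshold, those with peaks in 3 of 3 samples of one hairpin and none of the other, the 5 longest and the 5 most fully covered, and up to 3 genes of each list by p, of which 1 is not reported here. Others (USP8, USP24, USP37, neighbours that do not overlap a USP gene, and windows within genes) were chosen after their values were seen. The family, the lists and the tests were chosen with earlier results of these data known, so no count is independent support. Same-numbered replicates had correlated deviations of -0.06 to -0.01, so the numbers were not used as pairs. Alternatives were no scaling, other pseudocounts (100 and 2000 bp), no filter, stricter peaks (5-fold, −log10 q of 3), equal numbers of peaks, equal depth (added after seeing the data), other windows, a 500 bp minimum, a replicate block and each sample left out.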

Additional observations from a re-analysis of the deposited data

How the results depend on the processing

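The direction of the family's balance, more USP genes higher than lower, was kept under each alternative except windows around gene ends, where 6 were higher, 7 lower and the median was -0.049. There USP9X (-0.024), USP7 (-0.027), USP22 (-0.091), USP39 (-0.10) and USP20 (-0.18) turned below 0. That setting tested 36 USP genes, and of all 10575 genes tested 1572 were higher (14.9%) and 2660 lower (25.15%). Peaks of at least 5-fold enrichment left 34 USP genes tested, 10 higher and 1 lower. Among all genes tested with these peaks, 1843 were higher (18.2%) and 1955 lower (19.3%). They left 1 USP start higher and 1 lower, 0 stops lower, and 8 bodies higher and 0 lower. Without scaling, all genes gave 3179 higher and 2044 lower, so that 60.9% of calls were higher (47.0% as reported, a median of 0.06 in place of -0.08), and USP starts gave 2 lower, stops 0 and bodies 0. Lower stops numbered 0 with a pseudocount of 100 bp, with equal numbers of peaks and at equal depth, and 3 with −log10 q of at least 3. Higher stops numbered 8 with no filter, and the median at stops was -0.030 with a minimum of 500 bp. Lower bodies numbered 0 with no filter, 2 with equal numbers of peaks and 2 with a minimum of 500 bp. Leaving out 1 sample, with 5 samples in each fit, gave 12 to 17 USP genes higher and 2 to 4 lower (2 without shT2 replicate 1). Among all genes tested, these fits gave 19.9% to 23.3% higher and 22.5% to 25.3% lower. USP starts numbered 2 to 3 higher and 4 to 6 lower, and stops 3 to 6 higher and 0 to 3 lower. USP bodies numbered 11 to 15 higher and 0 to 1 lower. With the replicate block, 16 USP genes were higher and 4 lower, 0 bodies were lower, and 18 of 20 calls were kept, USP44 and USP20 being lost. The replicate numbers share no more than a number here. The cause of these changes was not tested. The equal-depth setting rescales summits and drops peaks but does not shorten those kept.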

Other observations

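Close relatives within the family were also set side by side, over 14 pairs. Both genes were called in the same direction in 4 pairs: USP20 with USP33 (log2 differences 0.19 and 1.37), USP44 with USP49 (0.76 and 1.56) and USP16 with USP45 (1.51 and 1.37) were higher in shT2, and USP35 with USP38 (-0.31 and -1.18) were lower. No pair held a higher and a lower call, but the pairs with USP15, USP27X, USP28, USP43 or USP53 held a gene not tested. The family had 16 higher and 4 lower calls, so a shared direction is no result about relatives. USP5 and USP13 differed in their calls, with -0.09 (not passed) for USP5 and -0.64 (lower) for USP13, a difference between genes that was not tested. USP22 was higher at 30.2 kb of scaled coverage in shT2 and 22.4 kb in shNC3, while its relative USP27X had no peak in shT2 and 323, 0 and 834 bp in shNC3.

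Neighbours of 2 called USP genes were called too, with none of the USP coverage in their own windows. CCT8, next to USP16, held 1481, 3200 and 4175 bp in shT2, against 836, 439 and 671 bp in shNC3 (log2 difference 1.41, limma adjusted p = 0.0104). METAP2, next to USP44, held 3833, 3194 and 2489 bp in shT2, against 332, 375 and 440 bp in shNC3 (1.94, limma adjusted p = 0.000348). C9orf78, next to the higher USP20 and also without any of its coverage, did not pass (-0.08, limma adjusted p = 0.630). TMEM150A, next to the higher USP39 and sharing some of its coverage, was called lower (-0.30, limma adjusted p = 0.0152). Over the 41 USP genes tested, Spearman's rho between span and log2 difference was 0.20, and these genes share the same 6 libraries.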
